A study of Mus musculus with 9 samples.

Results

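The cytochrome P450 genes of families 1 to 3 were followed in mouse liver after loss of autophagy in hepatocytes. The members were all genes of the count table whose symbol begins with Cyp, a family number from 1 to 3, a subfamily letter and a gene number, leaving out 2 symbols that carry a pseudogene suffix, which gave 60 of 24411 genes. The rule uses symbols and no measured value, although the families were picked with earlier results of these data known. Poly(A) RNA from 9 livers had been sequenced, 3 biological replicates in each of 3 groups. All mice were described as 3 months old, on a C57BL/6 background, and homozygous for a floxed allele of Atg7, a gene required for autophagosome formation. The cont. livers (Atg7flox/flox) carried no Cre. The Atg7-KO livers (Atg7flox/flox;Alb-Cre) carried Cre under the albumin promoter, which is active in hepatocytes, and a whole-liver sample holds other cells as well. The third group (Atg7flox/flox;Alb-Cre;p62S351A/p62S351A), called S351A here, had in addition both copies of p62 changed so that the protein binds KEAP1, the inhibitor of the transcription factor NRF2, less well. For S351A replicates 2 and 3 the genotype entry in the labels names another position of p62 than the titles do, and the titles were followed.

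Cytochrome P450 enzymes are heme proteins of the endoplasmic reticulum that insert an oxygen atom into their substrates, using electrons delivered by the reductase POR and by cytochrome b5. Families 1 to 3 hold most of the hepatic enzymes that oxidise drugs, pollutants, steroids and fatty acids. Their genes lie in clusters of close paralogs, and in hepatocytes they are known targets of the receptors AHR (Cyp1a), CAR (Cyp2b and Cyp2c) and PXR (Cyp3a). Several mouse members are expressed mainly in one sex, a difference set by the pattern of growth hormone release.

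The deposited values were estimated read counts per gene, and levels are given below as CPM, the count of a gene divided by the TMM-scaled total of its library and multiplied by 1000000. TMM scaling sets the bulk of genes level between libraries (factors 0.727 to 1.18). Library totals ran from 713841 to 15426575 counts. The 3 S351A libraries were the smallest, so depth and the p62 mutation cannot be told apart, and 3 counts corresponded to between 0.269 and 3.73 CPM. The labels give no sex. Xist and Y-linked counts marked 2 male and 1 female library in cont., 1 male and 2 female in Atg7-KO, and 1 male and 2 female in S351A. Atg7 itself stood at 45.1, 57.8 and 42.4 CPM in cont., against 30.2, 28.0 and 28.4 in Atg7-KO, and 21.8, 24.8 and 22.2 in S351A, with every library of the Cre groups below every cont. library. Summed markers of hepatocytes (6 genes, none at 0) spanned 50160 to 103694 CPM in cont., 30769 to 37415 in Atg7-KO and 29198 to 42850 in S351A, with all 6 called lower in Atg7-KO and a median of -1.70 for their log2 fold changes. Summed ductular markers (5 genes, none at 0) spanned 47.2 to 83.3, 816 to 1202 and 719 to 1194 CPM. Summed stellate cell markers (5 genes, none at 0) spanned 239.9 to 494, 929 to 1356 and 958 to 1337 CPM. Summed erythroid markers (5 genes, 1 at 0 in every library) spanned 322 to 898, 93.0 to 204 and 151 to 217 CPM, and lymphocyte markers (3 genes, none at 0) 3.81 to 16.8, 38.0 to 51.7 and 23.0 to 31.0 CPM. Kupffer cell and sinusoidal endothelial sums overlapped between cont. and each Cre group. Single genes of these lists did differ in Atg7-KO against cont., where 38% of all genes tested were called. Of 5 Kupffer cell and macrophage markers 2 were called higher, and of 4 sinusoidal markers 1 was called higher and 2 lower. In such bulk samples, fewer hepatocytes and less P450 RNA per hepatocyte cannot be told apart, and the part of these markers in the results below was not tested.

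Of the 60 members, 39 passed the filter on low counts and were tested among 11199 genes. A further 16 had some counts but were not tested, with a highest value in any library between 0.0896 CPM (Cyp2d34) and 25.0 CPM (Cyp3a44). The remaining 5, Cyp2b19, Cyp2j12, Cyp2j13, Cyp2w1 and Cyp3a41b, were at 0 in every library. The Cyp2c subfamily was the largest, with 12 of 15 members tested, followed by Cyp2d (7 of 9), Cyp3a (5 of 9), Cyp2j (3 of 7), Cyp2b (2 of 5) and Cyp2a (4 of 4). Because a filter keeps genes that are high in at least 1 group, the counts that follow describe the tested members and not all 60.

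**Figure D1:**
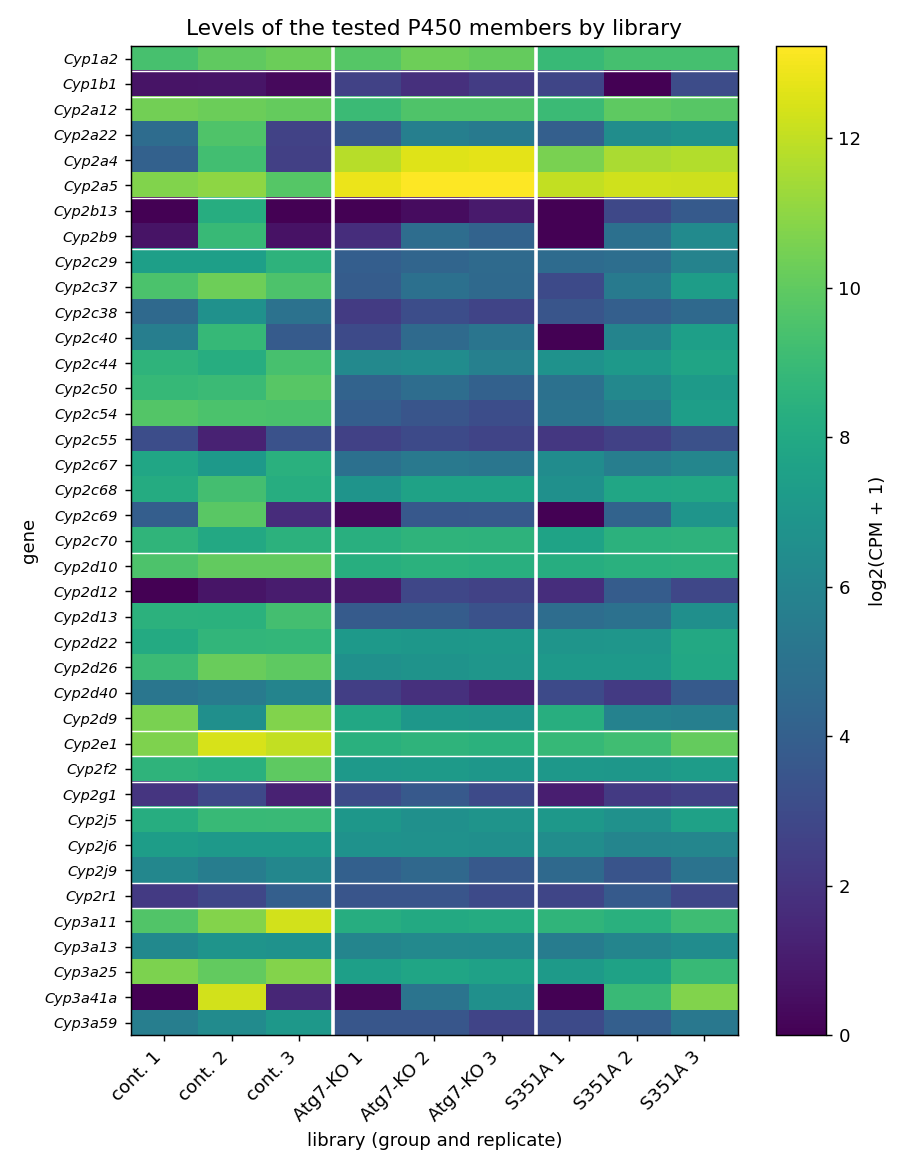
Level of each of the 39 tested members (rows, ordered by subfamily) in each of the 9 libraries (columns), as log2(CPM + 1) on the colour scale. Rows such as Cyp2c37, Cyp2c50, Cyp2c54 and Cyp2d13 darken from cont. to the Cre groups, while Cyp2a4 and Cyp2a5 brighten, and Cyp3a41a, Cyp2b9 and Cyp2b13 are bright in 1 cont. library, replicate 2.

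The first comparison, Atg7-KO against cont., asked how the P450 genes change when hepatocytes lose autophagy. Most of the abundant members fell, whereas the pair Cyp2a4 and Cyp2a5 rose until it made up most of all P450 counts. A member was called when its adjusted p (edgeR quasi-likelihood test, Benjamini-Hochberg over all 11199 genes) was under 0.05 and it differed by more than 1.5-fold. By this rule 24 members were lower and 4 were higher, together 71.8% of the 39 tested, against 38% of all tested genes, of which 18.1% were lower and 19.9% higher. The median log2 fold change of the tested members was -2.74, against -0.03 over all genes tested, and it was -1.13 without cont. replicate 2. The libraries of the 2 groups did not overlap in 27 members, 23 of them lower in Atg7-KO and 4 higher, against 51.6% of all tested genes. In a fit that gave each sex its own change, the fitted value of 26 of the 28 calls had the direction of the call in females and in males. That of Cyp2d9 had the other sign in females, and Cyp2b13 had a fitted male change of 0. Calls and fitted values come from the same libraries, and the share over all called genes was not counted. With sex added as a term, so that livers are compared within a sex, 28 members were lower and 3 higher (37.6% of all genes tested were called). Cyp2a22, Cyp2b9, Cyp2c40, Cyp3a13 and Cyp3a41a were then called lower as well, and Cyp2d9 and Cyp2d12 were no longer called. Scaling to library totals in place of TMM factors raised the median over all genes to 0.52, turned the 2226 higher and 2027 lower calls over all genes into 4312 and 796, and gave 21 members lower and 6 higher, so that changes are read relative to the bulk of genes.

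Cyp2a5 oxidises coumarin and nicotine, and Cyp2a4, its closest paralog, hydroxylates testosterone and is known as a female-biased gene of mouse liver. Both lie in the Cyp2a cluster on chromosome 7 of mm10, Cyp2a4 at chr7:26307169-26315088 and Cyp2a5 at chr7:26835305-26843548, on the plus strand. The stretches just before their start sites are shown because this pair rose together. They come from RefSeq (GRCm38.p6, chr7:26306942-26307168 and chr7:26835089-26835304, plus strand), stop before the first annotated transcript base, and carry in capitals each base that differs between them.
Cyp2a4: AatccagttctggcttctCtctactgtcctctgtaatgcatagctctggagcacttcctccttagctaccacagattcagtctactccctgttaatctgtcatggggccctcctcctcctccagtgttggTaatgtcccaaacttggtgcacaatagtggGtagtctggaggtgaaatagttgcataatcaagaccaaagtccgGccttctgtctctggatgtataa
Cyp2a5: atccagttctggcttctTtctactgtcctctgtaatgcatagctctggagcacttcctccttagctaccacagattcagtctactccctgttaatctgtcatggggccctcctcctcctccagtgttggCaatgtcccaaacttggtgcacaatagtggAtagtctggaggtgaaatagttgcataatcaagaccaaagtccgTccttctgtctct
Over the 250 bases before each RefSeq start the pair matched at 245 of 251 aligned columns, or 97.6%. The same stretch of Cyp2a5 matched that of its neighbours Cyp2a12 and Cyp2a22 at 50.8% and 52.6%.

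Cyp2a5 stood at 1668, 2059 and 861 CPM in cont., against 7311, 9656 and 9568 in Atg7-KO, and 4232, 5040.4 and 4886 in S351A. The 3 groups did not overlap, with Atg7-KO highest and S351A in between. Against cont., Cyp2a5 rose in Atg7-KO by 2.53 ± 0.34 on the log2 scale (SE, adjusted p = 1.35e-04, edgeR), and the value was 2.22 in the female and 2.53 in the male libraries. Cyp2a4 stood at 16.5, 609.9 and 4.66 CPM in cont., against 3572, 6264 and 6541 in Atg7-KO, and 1523, 3054 and 3316 in S351A. In cont. the female library, replicate 2, was far above the male libraries, and in the Cre groups the male library was the lowest of its group yet above every cont. library. Cyp2a4 rose in Atg7-KO by 4.70 ± 1.31 on the log2 scale (SE, adjusted p = 0.0133, edgeR). The fitted change was 3.39 in the female and 8.60 in the male libraries, and 9.20 without the female cont. library. Of all possible 75-base stretches in the transcripts of Cyp2a4, 21% also occur in Cyp2a5, so part of the reads cannot be assigned to either with certainty. The other members of the subfamily did not share this rise. Cyp2a12, a steroid and bile acid hydroxylase, fell from 1358, 1228 and 1088 CPM in cont. to 511, 763 and 774 in Atg7-KO (log2 fold change -0.84 ± 0.29, adjusted p = 0.0345), a call that 8 of 19 alternative settings lost. Cyp2a22 was not called, with 24.8, 761 and 5.20 CPM in cont. and 12.1, 51.3 and 40.7 in Atg7-KO. Its log2 fold change was -2.94 ± 1.31 (adjusted p = 0.0943). With sex as a term it was called lower (-2.43, adjusted p = 0.0212), and without the female cont. library, which leaves only male cont. livers, it was 1.52.

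Summing the counts within a subfamily reduces the doubt about how reads were split between paralogs, although some stretches are shared with genes outside the sums (11.2% of Cyp2b13 with Gm45225). The Cyp2a total took 19.4%, 15.6% and 7.62% of all counts of the 60 members in the cont. libraries. In Atg7-KO it took 75.9%, 79.7% and 80.7%, and in S351A 64.5%, 67.3% and 53.7%. Each Cre library thus had most of its counts of these families in Cyp2a, and no cont. library had. The Cyp2a total rose by 2.22 ± 0.36 on the log2 scale (SE, adjusted p = 4.53e-04). The Cyp3a total fell by 3.31 ± 0.56 (adjusted p = 6.76e-04), the Cyp2c total fell by 2.59 ± 0.37 (adjusted p = 2.14e-04) and the Cyp2d total fell by 2.34 ± 0.27 (adjusted p = 4.04e-05). The Cyp2j total fell by 1.47 ± 0.23 (adjusted p = 4.40e-04). With gains and losses set against each other, the members together made up 1.86 ± 0.529% of all unscaled counts in cont. (mean ± SD, n = 3 each). The shares were 2.15 ± 0.338% in Atg7-KO and 1.49 ± 0.442% in S351A. The fold changes above use TMM scaling instead. TMM scaling would raise the cont. values (factors 0.727 to 0.843) and lower those of Atg7-KO (1.12 to 1.18) and S351A (1.07 to 1.14). The unscaled shares therefore do not give the change of the total on that scale.

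**Figure D2:**
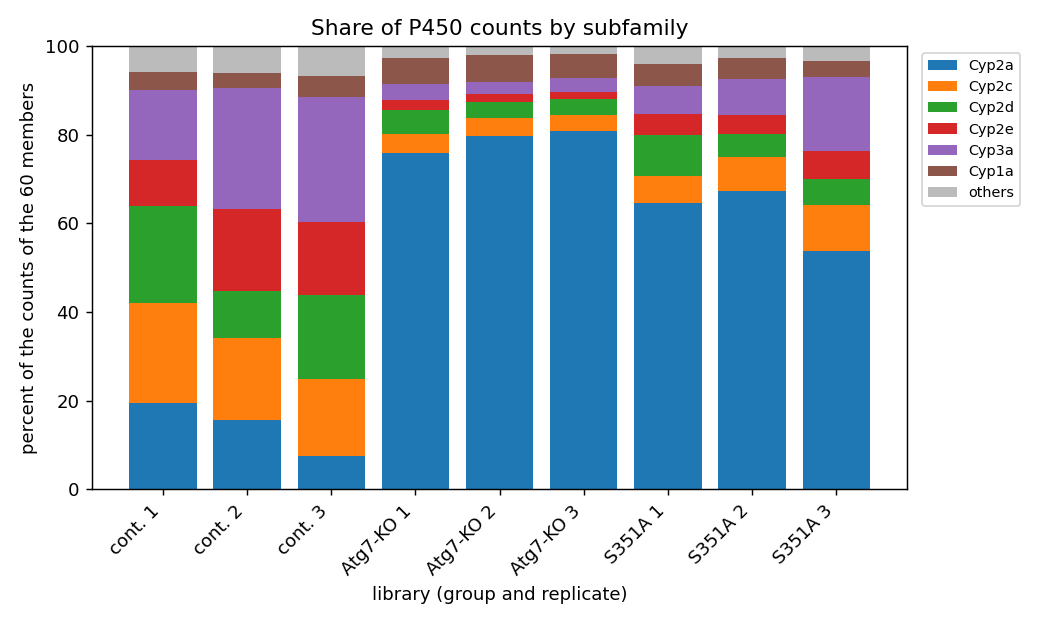
Share of the counts of the 60 members taken by each subfamily (coloured stacks, percent) in each of the 9 libraries. Cyp2a reaches at most 19.4% in cont., and its lowest shares are 75.9% in Atg7-KO and 53.7% in S351A.

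The order of the members by level changed with it. Per kilobase of exon, mean levels in cont. were highest for Cyp2e1 (1758 CPM per kb) and for Cyp3a41a, whose mean rests on the female library, followed by Cyp2a5 (738 CPM per kb). In Atg7-KO, Cyp2a5 was first with 4267 CPM per kb, with Cyp2a4 (3141) and Cyp1a2 (538) next, and Cyp2e1 was 7th with 168. In S351A, Cyp2a5 was again first with 2277 CPM per kb and Cyp2e1 was 4th with 328. These are levels per length from 3 libraries each, given as a description.

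Cyp2c held 9 of the 24 lower calls. Of its 15 members 14 were placed on chromosome 19 of mm10, between bases 39007019 and 40187333, and of the 12 tested none was higher in Atg7-KO. Most mouse Cyp2c enzymes convert arachidonic acid to epoxides and alcohols. Cyp2c54 stood at 818, 722 and 698 CPM in cont. and at 14.6, 10.4 and 7.78 in Atg7-KO. The groups were far apart and the cont. libraries close together (746 ± 63.6 CPM, SD, n = 3), and the log2 fold change was -6.06 ± 0.58 (SE, adjusted p = 1.36e-05, edgeR). Cyp2c37 went from 709, 1286 and 748 CPM to 13.7, 28.7 and 22.0 (log2 fold change -5.42 ± 0.79, adjusted p = 2.55e-04). Cyp2c50 went from 459, 520.5 and 899.9 CPM to 17.4, 25.8 and 16.5 (-4.98 ± 0.52, adjusted p = 2.61e-05). In each of the 3 genes the lowest cont. library was more than 10 times the highest Atg7-KO library. Cyp2c29, the member best known as a CAR target, went from 179, 178 and 370.1 CPM to 14.4, 18.7 and 22.9 (-3.72 ± 0.40, adjusted p = 3.19e-05). Cyp2c44, an epoxygenase, went from 390.3, 305 and 669 CPM to 73.1, 86.5 and 53.1 (-2.68 ± 0.35, adjusted p = 1.23e-04). Cyp2c38, Cyp2c67, Cyp2c68 and Cyp2c69 were lower as well, with log2 fold changes between -5.43 (Cyp2c69) and -1.25 (Cyp2c68), and the calls of these 2 outermost genes were lost under 6 and 3 alternative settings.

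Among the Cyp2c genes not called, Cyp2c70 makes the muricholic acids of mouse bile, and stood at 409, 255 and 358 CPM in cont. and at 324, 388 and 375 in Atg7-KO. These ranges overlapped, and the 95% interval of the log2 fold change ran from -0.50 to 0.68. Cyp2c55 was low, between 1.41 and 9.05 CPM over cont. and Atg7-KO, and was not called, with a sign that turned under another scaling. Cyp2c40, a female-biased gene, stood at 50.2, 465 and 12.7 CPM in cont. and at 6.73, 22.6 and 34.3 in Atg7-KO, and was not called either (log2 fold change -3.09 ± 1.26, adjusted p = 0.0698). With sex as a term it was called lower (-3.33, adjusted p = 0.00211), and without the female cont. library it was -0.47 (adjusted p = 0.752). Read sharing was high in part of this cluster, with 45.9% of the 75-base stretches of Cyp2c40, 42.6% of Cyp2c69 and 36% of Cyp2c67 found in another gene, against 13.8% of Cyp2c37 and 14.1% of Cyp2c54.

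Cyp2c37 and Cyp2c50, which fell together, share less of their upstream sequence than Cyp2a4 and Cyp2a5 do. The 250 bases before each start (RefSeq, GRCm38.p6, chr19:39992174-39992423 and chr19:40089429-40089678, plus strand) matched at 215 of 255 aligned columns, or 84.3%. Capitals mark the 35 bases of each that differ from the other.
Cyp2c37: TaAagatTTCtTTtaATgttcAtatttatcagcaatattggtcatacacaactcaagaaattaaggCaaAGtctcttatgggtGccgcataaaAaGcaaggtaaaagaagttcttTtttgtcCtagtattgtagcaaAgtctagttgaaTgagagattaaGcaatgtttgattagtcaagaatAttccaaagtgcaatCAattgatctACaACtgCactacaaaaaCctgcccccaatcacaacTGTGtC
Cyp2c50: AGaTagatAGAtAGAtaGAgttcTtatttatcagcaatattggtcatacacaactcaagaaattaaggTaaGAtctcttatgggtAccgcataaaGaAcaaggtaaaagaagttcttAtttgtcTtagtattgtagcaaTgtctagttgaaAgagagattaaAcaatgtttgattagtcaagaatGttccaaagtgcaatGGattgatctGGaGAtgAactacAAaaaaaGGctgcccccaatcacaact

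Of the Cyp2d subfamily, clustered on chromosome 15, all 7 tested members were called, 6 lower and Cyp2d12 higher. This subfamily metabolises many basic drugs. Cyp2d13, a gene that is not in the annotation used for positions, stood at 362, 349 and 611 CPM in cont. and at 12.8, 13.3 and 9.15 in Atg7-KO (log2 fold change -5.22 ± 0.49, adjusted p = 1.17e-05). Cyp2d40 stood at 35.6, 44.7 and 61.1 CPM and at 4.41, 2.51 and 1.37 (-3.98 ± 0.38, adjusted p = 1.46e-05). Both were low in every Atg7-KO library. Cyp2d10, among the most abundant members in cont., fell less, from 746, 1059.6 and 1056 CPM to 313, 348 and 330.4 (-1.53 ± 0.22, adjusted p = 2.63e-04). Cyp2d26 and Cyp2d22 had log2 fold changes of -3.04 and -1.49. Cyp2d12 was near the detection limit, with 0, 0.704 and 0.985 CPM in cont. and 0.928, 6.10 and 5.03 in Atg7-KO. It was called higher (2.22 ± 0.80, adjusted p = 0.0445), but its libraries overlapped and 7 alternative settings lost the call.

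Cyp2e1, which oxidises ethanol and acetaminophen in the cells around the central vein, was the most abundant member per length in cont. It stood at 1627, 5535 and 4222 CPM in cont. and at 340.3, 389 and 355 in Atg7-KO, and its log2 fold change was -3.39 ± 0.46 (SE, adjusted p = 1.44e-04). The cont. libraries spread widely, yet the lowest of them was above every Atg7-KO library. Cyp2f2, an enzyme of the periportal cells that activates naphthalene, went from 383, 341 and 992 CPM to 139, 145 and 129 (-2.06 ± 0.36, adjusted p = 8.65e-04). Thus a gene of either end of the lobule was lower. Of the Cyp3a subfamily on chromosome 5, 3 of 5 tested members fell. Cyp3a11, the main PXR target and the chief drug-metabolising Cyp3a of mouse liver, went from 799, 1745 and 5213 CPM to 299.7, 264 and 281 (-3.20 ± 0.55, adjusted p = 7.27e-04). Cyp3a25 and Cyp3a59 had log2 fold changes of -2.92 and -3.29. Cyp3a13, which lies apart from the other Cyp3a genes, at chr5:137892932-137921619, was not called, with 78.2, 114 and 107 CPM in cont. and 64.0, 73.2 and 76.0 in Atg7-KO (-0.49 ± 0.23, adjusted p = 0.117), but was with sex as a term (-0.61, adjusted p = 0.0409) and had the other sign with libraries scaled to their totals. Of the fatty acid epoxygenases of the Cyp2j cluster on chromosome 4, Cyp2j5 went from 306, 479 and 506 CPM to 126, 99.8 and 116 (-1.92 ± 0.28, adjusted p = 2.35e-04), and Cyp2j9 had a log2 fold change of -1.92 as well. Cyp2j6 stayed under the fold threshold (162, 137 and 137 CPM against 105, 101 and 95.6).

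In family 1 the abundant member was not called. Cyp1a2, the caffeine-oxidising AHR target of hepatocytes, stood at 656, 1016 and 1222 CPM in cont. and at 865, 1262 and 1121 in Atg7-KO. The libraries overlapped, the log2 fold change was 0.17 ± 0.27 (SE, adjusted p = 0.670), and its 95% interval ran from -0.43 to 0.76. With libraries scaled to their totals it was called higher, at 0.72. Cyp1a1, the inducible AHR target, was too low to be tested in the main fit, with 1.27, 0.704 and 1.25 CPM in cont. and 3.48, 4.31 and 5.03 in Atg7-KO. It was called higher without a filter, with the 6 compared libraries alone, and on leaving out S351A replicate 1, 2 or 3. Cyp1b1, an estrogen hydroxylase better known from cells other than hepatocytes, rose from 0.636, 0.704 and 0.269 CPM to 5.10, 2.51 and 4.12 (3.15 ± 0.75, adjusted p = 0.00575). Without cont. replicate 3, the deepest library, the adjusted p was 0.0556. Cyp1b1 gave no value with the 6 compared libraries alone or after thinning to the smallest library. It moved with the summed ductular and stellate markers given above, whose part in it was not tested. The vitamin D hydroxylase gene Cyp2r1 (3.81, 5.99 and 15.2 CPM against 10.2, 10.1 and 6.86) was not called. Cyp2g1 (3.18, 6.69 and 1.43 CPM against 7.19, 11.8 and 6.86) was not called either (1.35, adjusted p = 0.0653), although its groups did not overlap. It was called higher with total library size (1.88), without a filter (1.29), with the replicate block (1.43) and without cont. replicate 2 (2.20), and was 0.71 without cont. replicate 3.

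**Figure D3:**
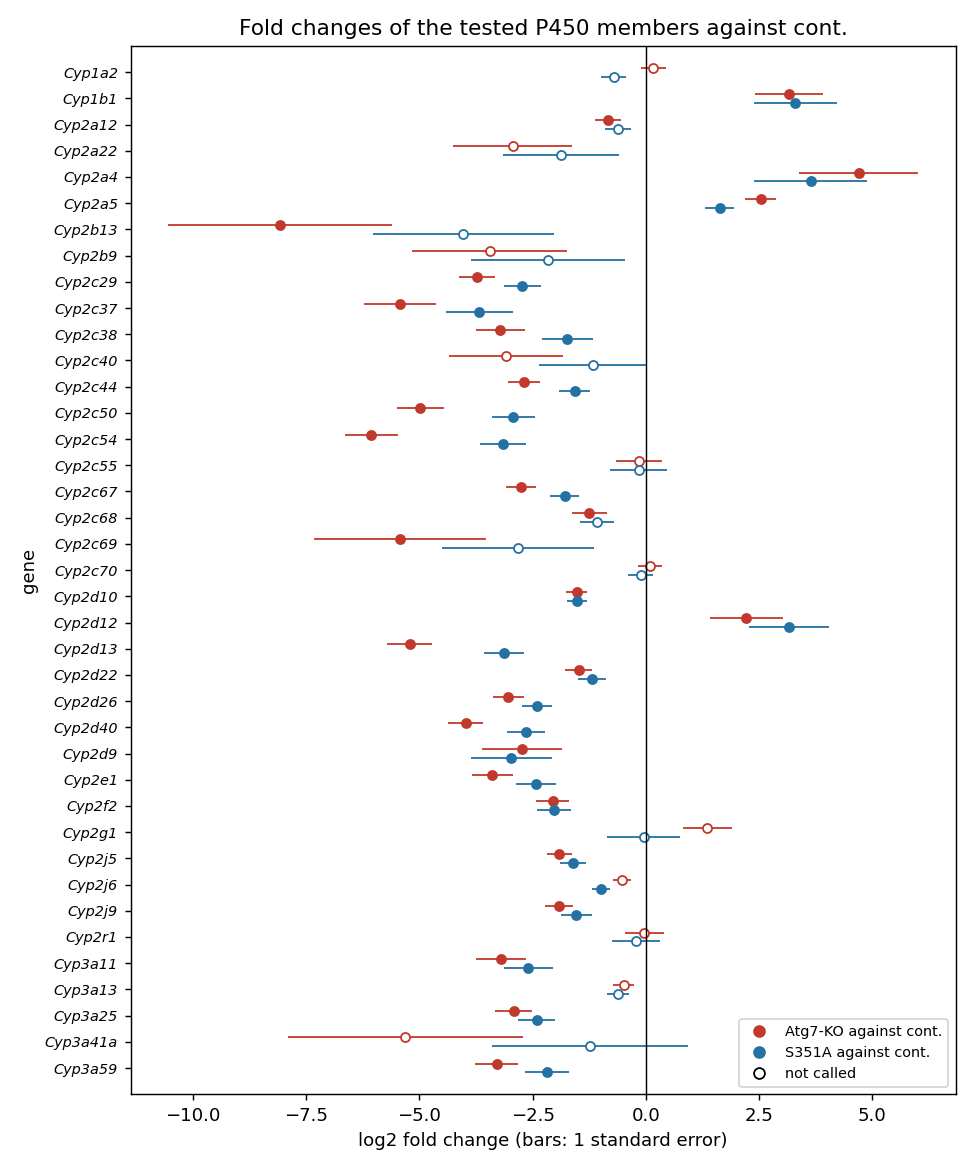
Log2 fold change (horizontal axis, bars of 1 standard error) of each of the 39 tested members in Atg7-KO (red) and in S351A (blue), both against the same 3 cont. libraries. Filled points are called and open points are not. Most filled points lie left of 0, and Cyp1b1, Cyp2a4, Cyp2a5 and Cyp2d12 lie right of it in both groups.

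The second comparison, S351A against Atg7-KO, asked whether weaker binding of KEAP1 by p62 alters these genes once autophagy is lost. No member passed the test in edgeR, and 1 gene among all 11199 did, or 0.00893%. At an unadjusted p under 0.05 there were 13 members, 10 higher and 3 lower, against 6.6% of all genes tested. DESeq2 called 3 members higher in S351A, against 0.357% of all genes called in either direction, and edgeR without a filter on low counts called 5, against 0.514%. The median log2 fold change of the tested members was 0.61, against 0.01 over all genes, and it was 0.15 without S351A replicate 3. The libraries of the 2 groups did not overlap in 15 members, 10 higher and 5 lower in S351A, against 16.9% of all genes tested.

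The members with the smallest unadjusted p were Cyp2c54, Cyp2d13, Cyp2c50, Cyp2c44 and Cyp1a2, none of them called by edgeR in the main fit. Cyp2c54 stood at 14.6, 10.4 and 7.78 CPM in Atg7-KO and at 32.2, 47.2 and 173 in S351A (log2 fold change 2.91 ± 0.53, adjusted p = 0.228). Cyp2d13 stood at 12.8, 13.3 and 9.15 CPM and at 25.3, 29.8 and 96.3 (2.08 ± 0.47, adjusted p = 0.311), and Cyp2c50 at 17.4, 25.8 and 16.5 CPM and at 29.9, 70.8 and 148 (2.05 ± 0.48, adjusted p = 0.342). In all 3 genes each S351A library lay above each Atg7-KO library and S351A replicate 3 was the highest. These are the 3 members that DESeq2 called, with adjusted p of 1.43e-05, 0.00479 and 0.00816. Without a filter edgeR called these 3 as well (adjusted p = 1.15e-07, 1.23e-04 and 1.42e-04), together with Cyp2c37 and Cyp3a41a. Without S351A replicate 3 the edgeR log2 fold changes were 1.82, 1.21 and 1.33. Cyp2c44 was at 108, 137 and 215 CPM in S351A (1.11 ± 0.34 against Atg7-KO, adjusted p = 0.590). S351A replicate 3 was the highest library of its group in 31 of the 39 tested members, against 34.6% of all genes tested, and replicate 1, the male library, was the lowest in 30, against 32%.

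For Cyp2a5 and Cyp2a4 every S351A library lay below every Atg7-KO library, again without a call. The log2 fold change of Cyp2a5 was -0.91 ± 0.32 (adjusted p = 0.692) and that of Cyp2a4 was -1.05 ± 1.13 (adjusted p = 0.908). Cyp1a2 stood at 489, 652 and 634 CPM in S351A, below every library of the other groups (-0.87 ± 0.28 against Atg7-KO, adjusted p = 0.620). The Cyp2a total differed by -0.87 ± 0.34 on the log2 scale (adjusted p = 0.717) and the Cyp1a total by -0.87 ± 0.28 (adjusted p = 0.613). The Cyp3a total differed by 1.34 ± 0.53 (adjusted p = 0.717) and the Cyp2c total by 0.62 ± 0.35 (adjusted p = 0.842), and without S351A replicate 3 these values were 0.50 and 0.15. Members such as Cyp2d10 (299.9, 337 and 364 CPM) and Cyp2f2 (133, 128 and 160.4 CPM) had log2 fold changes near 0 between S351A and Atg7-KO, with 95% intervals from -0.47 to 0.50 and from -0.75 to 0.80. With 3 libraries of at most 792372 counts in S351A, a missing call does not show that a member was the same in both groups.

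**Figure D4:**
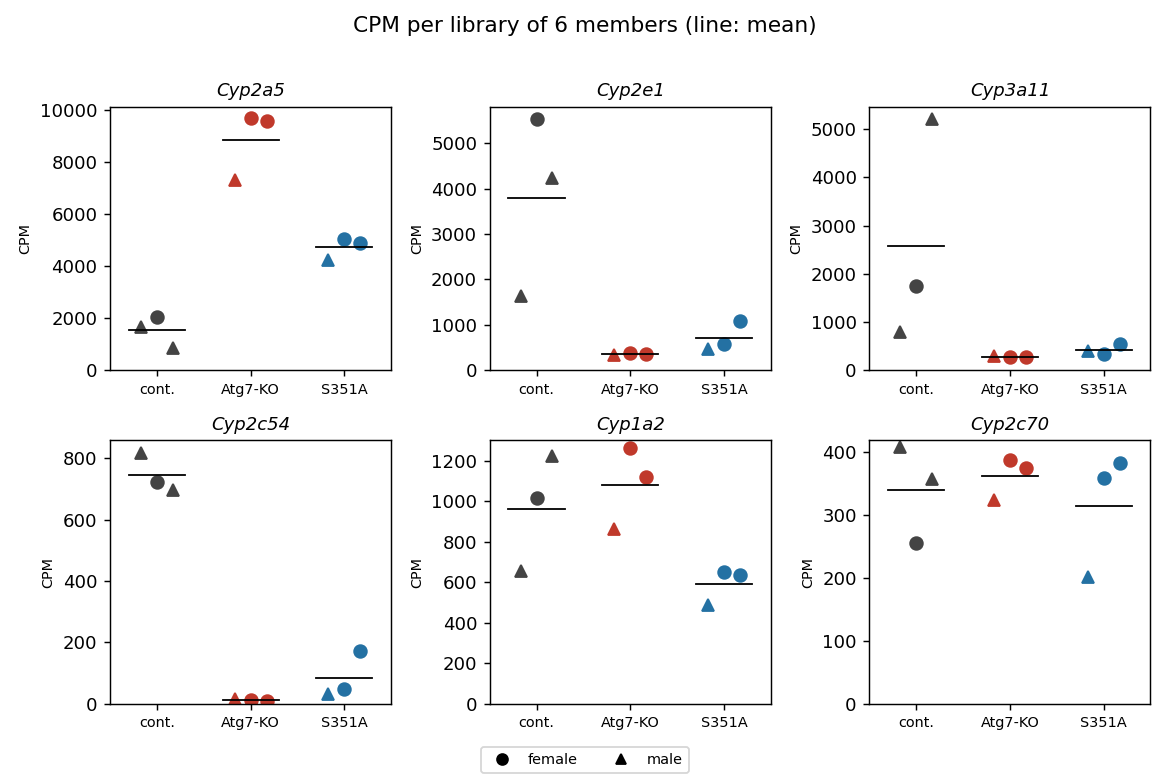
CPM of 6 members in each library (circles female, triangles male, line the group mean), on linear axes from 0. Cyp2a5 is highest in Atg7-KO, Cyp2e1, Cyp3a11 and Cyp2c54 are highest in cont., and Cyp1a2 and Cyp2c70 overlap between cont. and Atg7-KO.

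The third comparison, S351A against cont., gave 21 members lower and 4 higher of 39 tested, or 64.1%, against 28.6% of all genes tested (13% lower and 15.6% higher). It shares its cont. libraries with the first comparison. The median log2 fold change of the tested members was -1.61 (-0.93 without cont. replicate 2), against -0.03 over all genes, and the libraries did not overlap in 26 members, against 38% of all genes. The fitted values of all 25 calls had the direction of the call in females and in males. They come from the same libraries as the calls, and the share over all called genes was not counted. With sex as a term 30 members were lower and 4 higher (28.6% of all genes called), the added ones being Cyp1a2, Cyp2a12, Cyp2b9, Cyp2b13, Cyp2c40, Cyp2c68, Cyp2c69, Cyp3a13 and Cyp3a41a. With the replicate number as a block 28 members were called (30.4% of all genes called). The added ones were Cyp1a2 (-0.68, adjusted p = 0.0361), Cyp2c68 (-1.10, adjusted p = 0.00806) and Cyp3a13 (-0.62, adjusted p = 0.0407). Scaling to library totals raised the median over all genes to 0.47, turned 1748 higher and 1460 lower calls over all genes into 3541 and 510, and gave 18 members lower and 4 higher. By subfamily, 7 of 12 Cyp2c, 6 of 7 Cyp2d, 3 of 3 Cyp2j and 3 of 5 Cyp3a members were lower, as were Cyp2e1 and Cyp2f2. Among lower members whose libraries did not overlap, the largest changes were those of Cyp2c37 (log2 fold change -3.67 ± 0.74), Cyp2c54 (-3.15 ± 0.50), Cyp2d13 (-3.13 ± 0.45), Cyp2c50 (-2.92 ± 0.48) and Cyp2c29 (-2.72 ± 0.40), with adjusted p between 4.37e-04 and 0.00326. Cyp2e1 was at 462, 579 and 1086 CPM (-2.42 ± 0.44, adjusted p = 0.00183) and Cyp3a11 at 399.8, 339 and 549 (-2.59 ± 0.53, adjusted p = 0.00381). Cyp2j6 was called here, at 88.5, 64.6 and 66.6 CPM (-0.98 ± 0.20, adjusted p = 0.00373). Cyp2a5 rose by 1.63 ± 0.33 (adjusted p = 0.00335). Cyp2a4 rose by 3.64 ± 1.25 (adjusted p = 0.0452), a call that 8 of 18 alternative settings lost, and by 8.14 without the female cont. library. Cyp1b1 and Cyp2d12, at 5.74, 0 and 7.40 CPM and 2.30, 13.7 and 6.17 CPM, were called higher from at most 11 counts a library, with 0 counts of Cyp1b1 in S351A replicate 2. The call of Cyp1b1 was lost without cont. replicate 3, S351A replicate 1 or S351A replicate 3, and that of Cyp2d12 without S351A replicate 2. Neither was called with the 6 libraries alone or after thinning to the smallest library. In both settings 33 members were tested in place of 39, and after thinning neither gene was tested.

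Sex-biased members showed how much 1 library can decide. The only female cont. library, replicate 2, held nearly all counts of several members in that group. Cyp3a41a stood at 0, 5111 and 1.70 CPM in cont., against 0.232, 32.7 and 98.4 in Atg7-KO, and 0, 493 and 1685 in S351A. The male library was at or near 0 in each group, and the female Atg7-KO libraries were far below the female cont. library. Cyp2b9 stood at 0.636, 479 and 0.538 CPM in cont., against 2.32, 25.8 and 17.4 in Atg7-KO, and 0, 28.6 and 80.2 in S351A. Cyp2c69 stood at 14.6, 932 and 2.24 CPM in cont., against 0.232, 11.5 and 11.9 in Atg7-KO, and 0, 17.4 and 117 in S351A. Cyp2b13 was at 299 CPM in the female cont. library and at 12.3 CPM or less in the 8 others. In Cyp3a41a, Cyp2b9, Cyp2c69 and Cyp2b13 alike, the female cont. library was the highest of all 9. Of the 10 members listed as female-biased, 6 were tested, and Cyp2b13 and Cyp2c69 were called lower and Cyp2a4 higher in Atg7-KO. That is 50%, against 38% of all genes tested. With sex as a term, Cyp2b9 (-3.49, adjusted p = 0.00650) and Cyp3a41a (-6.15, adjusted p = 9.05e-05) were called lower in Atg7-KO too, and Cyp2b13 (-8.76) and Cyp2c69 (-6.22) kept their calls. Leaving out cont. replicate 2 sets livers of both sexes against male cont. livers alone. Without cont. replicate 2 the log2 fold changes of Atg7-KO against cont. were 4.61 for Cyp2b9, 4.92 for Cyp3a41a, 3.19 for Cyp2b13 and 0.32 for Cyp2c69, each the opposite sign to the value with it. The male cont. libraries held no counts of Cyp2b13, so its value there has no defined size. The Cyp2b total was not called (-4.13 ± 1.76, adjusted p = 0.0821). It was called higher without that library (3.55, adjusted p = 0.0335) and lower without cont. replicate 1 (-4.73, adjusted p = 0.0364) or replicate 3 (-4.74, adjusted p = 0.0205). Leaving out cont. replicate 2 changed the calls of members to 5 higher and 20 lower (37.3% of all genes tested were called), with a median of -1.13. Cyp3a41a also shares 95.3% of its 75-base stretches with other genes, 91.1% with Cyp3a41b, so its counts stand for both.

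The male-biased Cyp2d9, a testosterone hydroxylase, showed the mirror image. It stood at 1531, 95.1 and 1695 CPM in cont., with the female library lowest, and at 246, 129.6 and 119 in Atg7-KO and 315, 58.4 and 50.6 in S351A. In the male libraries the log2 fold change of Atg7-KO against cont. was -2.71, and in the female libraries it was 0.39. The call over all libraries (-2.74 ± 0.88, adjusted p = 0.0267) was lost under 7 alternative settings, sex as a term among them. Cyp2u1, the other listed male-biased member, was too low to be tested, with 2.54, 0.352 and 22.9 CPM in cont. and at most 1.83 in the Cre groups. The CAR target Cyp2b10 was untested as well. It had 0, 16.2 and 0.806 CPM in cont., 0 in each Atg7-KO library, and 2.30, 0 and 0 in S351A. Cyp3a44 had 25.0 CPM in the female cont. library and at most 7.40 in the others.

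**Figure D5:**
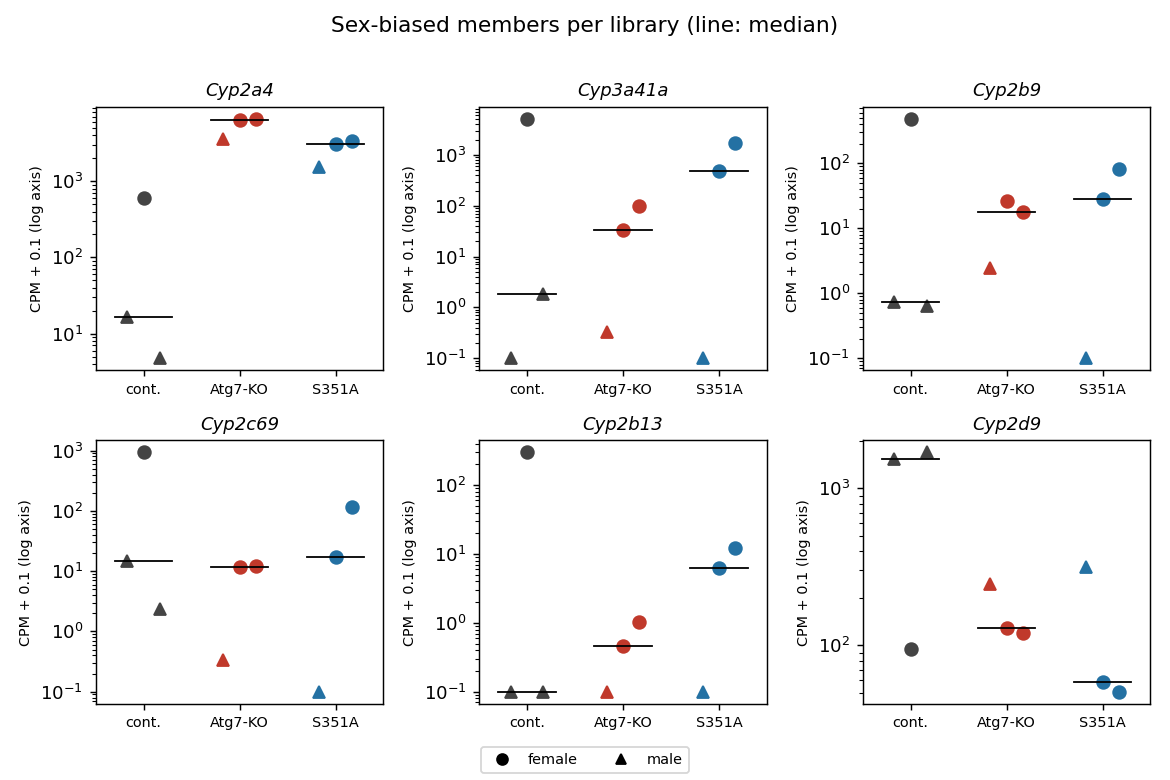
CPM + 0.1 (log axis) of 6 sex-biased members in each library, with female libraries as circles, male libraries as triangles and the group median as a line. In cont. the female library is highest for Cyp2a4, Cyp3a41a, Cyp2b9, Cyp2c69 and Cyp2b13 and lowest for Cyp2d9, and in the Cre groups the male library of Cyp2a4 is above every cont. library.

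Short letter patterns known for regulators of these genes were searched on both strands in the 250 bases before the start of the 52 members that have a RefSeq promoter entry. The HNF4A letters CAAAGTCCA were present in 10 members, 6 of Cyp2c (Cyp2c40, Cyp2c65, Cyp2c67, Cyp2c68, Cyp2c69 and Cyp2c70) and 4 of Cyp3a (Cyp3a11, Cyp3a16, Cyp3a41a and Cyp3a41b), against 0.384% of 32851 mouse promoters. Close paralogs share these bases, so the 10 are not independent. Examples are shown for a female-biased gene of each cluster, with the letters in capitals (RefSeq, GRCm38.p6, minus strand, chr5:145720137-145720386 for Cyp3a41a and chr19:39886800-39887019 for Cyp2c69).
Cyp3a41a: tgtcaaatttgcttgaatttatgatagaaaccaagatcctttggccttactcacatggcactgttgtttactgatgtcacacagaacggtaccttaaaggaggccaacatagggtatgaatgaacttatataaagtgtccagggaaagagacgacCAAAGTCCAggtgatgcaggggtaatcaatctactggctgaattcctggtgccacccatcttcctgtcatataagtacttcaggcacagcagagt
Cyp2c69: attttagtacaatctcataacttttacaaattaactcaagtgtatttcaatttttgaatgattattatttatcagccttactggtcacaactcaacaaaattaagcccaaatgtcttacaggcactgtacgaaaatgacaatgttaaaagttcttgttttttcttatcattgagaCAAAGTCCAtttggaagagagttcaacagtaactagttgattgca
The letters begin 95 bases before the RefSeq start in Cyp3a41a and 75 bases before it in Cyp2c69. Genes with these letters included both a called member, Cyp3a11, and an uncalled one, Cyp2c70. The AHR core GCGTG was present in 8 members (Cyp1a1, Cyp1b1, Cyp2b10, Cyp2c68, Cyp2j9, Cyp2j12, Cyp2j13 and Cyp2w1), against 28.2% of all promoters. The NRF2 pattern TGACNNNGC was in none of the 52, against 10.2%, and the STAT5 pattern TTCNNNGAA was in 2 (Cyp2j11 and Cyp2j12), against 7.02%. Each pattern was counted by itself, although the last bases of the NRF2 pattern can fall on an AHR core. A match or its absence in this window says nothing of binding.

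The redox partners of the P450 enzymes and the regulators of their genes were read from the same fit. Of 26 tested genes of that list, 7 were lower and 1 higher in Atg7-KO against cont., together 30.8% against 38% of all genes tested, and the median log2 fold change was -0.44. The CAR gene Nr1i3 fell from 338, 429 and 152 CPM in cont. to 49.9, 71.1 and 46.2 in Atg7-KO (-2.45 ± 0.37, adjusted p = 3.47e-04). In S351A it stood at 72.4, 132 and 129.6 CPM, which was 0.99 ± 0.37 above Atg7-KO on the log2 scale (adjusted p = 0.696). The other lower genes were the cytochrome b5 gene Cyb5a, the nuclear receptor genes Rxra, Nr1h4, Ppara and Nr0b2, and the factor gene Foxa2, with log2 fold changes between -1.61 (Nr1h4) and -0.88 (Rxra). Tiparp, an AHR target that encodes a repressor of AHR, was the 1 higher gene (2.24 ± 0.38, adjusted p = 6.58e-04). The reductase gene Por (-0.46 ± 0.42), the heme synthesis gene Alas1 (-0.41 ± 0.47), the PXR gene Nr1i2 (-0.63 ± 0.33), Ahr (0.01 ± 0.29), Hnf4a (0.38 ± 0.25) and the NRF2 gene Nfe2l2 (-0.77 ± 0.32) were not called, with adjusted p between 0.0782 and 0.975. No gene of the list was called between S351A and Atg7-KO. In the growth hormone pathway, 8 genes were tested, and Ghr (-2.64 ± 0.25), Stat5b, Bcl6 and Igf1 were lower and Cish higher in Atg7-KO, together 62.5% against 38% of all genes tested. Ghr encodes the receptor itself and stood at 475, 364 and 534 CPM in cont. and 71.7, 81.8 and 67.3 in Atg7-KO.

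The P450 genes of families 4 and above, which serve mostly fatty acids, sterols and bile acids, were counted beside the members. They were taken by symbol. Symbols without a subfamily letter and gene number were left out, and the opposite-strand transcript Cyp4x1os, which was not tested, was kept. Of 39 such symbols 23 were tested. In Atg7-KO against cont. 14 were lower and 2 higher, together 69.6% against 38% of all genes tested, and the median log2 fold change was -1.41. In S351A against cont. 11 were lower and 2 higher, together 56.5% against 28.6% of all genes tested, and none was called between S351A and Atg7-KO, against 0.00893%. No test of the difference between these families and families 1 to 3 was made.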

How the data were processed

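RNA of 9 mouse livers was sequenced by the authors as 75-base single reads, trimmed with Trim Galore, mapped to mm10 with STAR and quantified with RSEM (versions, annotation and strand setting not given in the sources used here). The deposited table holds RSEM expected counts, of which 4.40% to 7.75% per library were not whole. They were rounded here. Groups and replicate numbers followed the titles. Deviations from the group mean correlated above 0.1 in all 3 same-numbered pairs of cont. and S351A (0.160 to 0.235), and not in all those of the other comparisons (-0.04 to 0.31); the labels name no shared litter or day, and numbers 1 and 2 also shared a sex in every group.

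All genes were fitted in 1 model of 3 groups with edgeR 4.0.16 (R 4.3.3) using TMM scaling, filterByExpr (minimum count 10, minimum total 15) and the quasi-likelihood F test, tested beforehand on simulated data. Standard errors are the log2 fold change divided by the root of F. CPM values used TMM-scaled totals of the tested genes, and shares of counts used unscaled counts. Intervals of 95% use the degrees of freedom of that test. The members and lists were chosen with earlier results of these data known.

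Genes were named by subfamily abundance (the 2 highest of each subfamily of 3 or more members, every tested member of a smaller one), by role, by the 5 largest non-overlapping changes with at least 10 CPM in each comparison and direction, and, between S351A and Atg7-KO, by the 5 smallest p. Others with values (Cyp2a12, Cyp2a22, Cyp2c40, Cyp2c55, Cyp2c69 and the remaining called members) were added after their values were seen. Positions and shared 75-base stretches come from GENCODE M21 (58 of 60 names matched), and promoters from RefSeq (GRCm38.p6). Alternatives were RLE and total-count scaling, no filter, DESeq2 1.42.0, the 6 compared libraries alone, replicate or sex terms, thinning to the smallest library, other fold thresholds and each library left out.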

Additional observations from a re-analysis of the deposited data

Results flagged for a closer look

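In 15 cases a tested member was higher in every female library of one group and lower in its male libraries, or the reverse. The values are the log2 fold change in females minus that in males, from the edgeR quasi-likelihood test of the difference, and none passed the correction over all genes. Each group held 1 library of one sex and 2 of the other, so every value rests on single livers. In Atg7-KO against cont., the difference was -6.45 for Cyp2b9 (-4.46 in females and 1.99 in males, adjusted p = 0.208), 3.10 for Cyp2d9 (0.39 and -2.71, adjusted p = 0.236), 2.91 for Cyp2c55 (2.10 and -0.80, adjusted p = 0.857) and 0.82 for Cyp2c70 (0.58 and -0.24, adjusted p = 1.00). In S351A against cont., it was 3.54 for Cyp2c55 and 1.46 for Cyp2c70 (0.54 and -0.92), each with an adjusted p of 1.00. Cyp2c55 had only 3 to 7 counts in the S351A libraries. The male value of Cyp2b9 rests on levels near 0, with cont. replicate 1 under 3 counts.

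In S351A against Atg7-KO, each adjusted p was 1.00. The difference was 3.02 for Cyp2c37 (2.04 and -0.99), -1.55 for Cyp2d9 (-1.19 and 0.36), 2.30 for Cyp3a59, 0.51 for Cyp2c68 and 0.30 for Cyp2a12, whose male change was near 0. For 4 further members the male S351A library held 0 counts, where 3 counts are 3.45 CPM, so the fitted male change has no defined size. These were Cyp2c40 (9.41, with 6.73 CPM in the male Atg7-KO library), Cyp2b9 (7.16, with 2.32 CPM), Cyp3a41a (6.79) and Cyp2c69 (5.25). In Cyp2b9, Cyp3a41a and Cyp2c69 the male Atg7-KO level lay under those 3.45 CPM, so a lower male level in S351A could not be seen at this depth. Over all 39 tested members the test of the difference gave an unadjusted p under 0.05 in 6 in Atg7-KO against cont., 5 in S351A against Atg7-KO and 8 in S351A against cont., against 3.97%, 1.63% and 4.56% of all genes tested.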

How the results depend on the processing

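Of the 28 members called between Atg7-KO and cont., 21 were called in every alternative that gave a value, Cyp2a4, Cyp2a5, Cyp2c54, Cyp2e1 and Cyp3a11 among them. DESeq2 gave no adjusted p for Cyp2a4, Cyp2a22, Cyp2b13 and Cyp2c69. S351A libraries are shallow (3 counts are up to 3.73 CPM), each group has 3 libraries, and cont. has 1 female. Causes of the changes below were not tested.

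For Atg7-KO against cont., the median of the tested members, -2.74, was -2.18 with total library size, -1.97 without a filter, -2.06 with a replicate block, and -2.85 to -1.13 with 1 library left out. The 4 higher members became 7 without a filter, 2 after thinning, and 2 to 5 with 1 library left out. The Cyp1a total, 0.17, was 0.72 with total library size and passed the test, and ran from -0.064 to 0.37 with 1 library left out. The Cyp2b total, -4.13, passed at -4.16 without a filter, -3.97 with sex as a term and -4.15 after thinning, and ran from -4.81 to 3.55 with 1 library left out, passing as higher without cont. replicate 2 and as lower without cont. replicate 1 or 3.

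For S351A against Atg7-KO, the 0 members higher became 5 without a filter and 3 with DESeq2. With 1 library left out the median, 0.61, ran from 0.15 to 0.74, the Cyp3a total, 1.34, from 0.50 to 1.72, the Cyp2c total, 0.62, from 0.15 to 0.92, and the Cyp2b total, 1.52, from 0.31 to 2.18. The Cyp2j total, 0.04, was -0.0061 with total library size, -0.016 without a filter, and -0.14 to 0.21 with 1 library left out.

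For S351A against cont., the 4 higher members became 1 with the 6 libraries alone, 2 after thinning, and 2 to 8 with 1 library left out. The median, -1.61, ran from -2.02 to -0.93, the latter without cont. replicate 2. The Cyp1a total, -0.70, passed at -0.81 without a filter, -0.68 with DESeq2, -0.67 with a replicate block and -0.82 with sex as a term, and ran from -0.94, where it passed without cont. replicate 1, to -0.51. The Cyp2b total, -2.61, passed at -2.69 without a filter and -2.82 with sex as a term, and ran from -3.83 to 5.08, passing as higher without cont. replicate 2 (5.08). The Cyp3a total, -1.97, lost its call with the 6 libraries alone (-1.89), and on leaving out S351A replicate 1 (-1.60) or 2 (-1.80), and ran from -2.83 to -1.60. The Cyp2a total, 1.35, ran from 1.08 to 1.70 and lost its call without S351A replicate 2 (1.24).

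Single members of Atg7-KO against cont. that turned sign were uncalled or sex-biased. With total library size these were Cyp2c55 (0.43), Cyp2j6 (0.0049), Cyp2r1 (0.56) and Cyp3a13 (0.051). Cyp2r1 was 0.046 with DESeq2, 0.0066 with the 6 libraries alone, 0.13 with a replicate block and 0.068 with sex as a term, and Cyp2c55 was 0.068 with the block and 0.058 with sex. With 1 library left out, Cyp1a2 ran from -0.065 (without cont. replicate 1) to 0.37. The upper ends without cont. replicate 2 were 1.52 for Cyp2a22 (lowest -3.54), 3.19 for Cyp2b13 (lowest -9.11), 4.61 for Cyp2b9 (lowest -4.15), 0.32 for Cyp2c69 (lowest -6.04) and 4.92 for Cyp3a41a (lowest -6.74), and Cyp2c70 was lowest there (-0.089, highest 0.22). Without cont. replicate 3 were the highest values of Cyp2c55 (0.51, lowest -0.60) and Cyp2r1 (0.83, lowest -0.32). The replicate block gave 29 members called between Atg7-KO and cont., the 28 given in the report and Cyp2g1, and 28 between S351A and cont. in place of 25, and changed no other member's call. With the block 38.5% and 30.4% of all genes tested were called. Sex as a term gave 31 and 34 members, against 37.6% and 28.6% of all genes tested. Over all genes, the count of calls moved by more than 1.5 times in S351A against Atg7-KO (1, but 98 without a filter, 40 with DESeq2, 10 with the 6 libraries alone, 2 after thinning, and 0 to 3 with 1 library left out), in Atg7-KO against cont. (4253, but 2614 after thinning) and in S351A against cont. (3208, but 1849 with the 6 libraries alone, 2086 after thinning and 2098 without S351A replicate 1).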
